A study of Mus musculus with 18 samples.

Results

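*Il9r*, *Snrnp25*, *Rhbdf1* and *Mpg* are the 4 protein-coding genes that lie upstream of the mouse α-globin enhancers, on the far side of the CTCF-bound site HS-38 from the α-globin genes. They were chosen by position, as the DpnII restriction fragments that overlap each gene on mm9 or the 1 kb on either side of it. These are 4 of 2953 genes annotated on chromosome 11, and their windows hold 106 of its 295448 DpnII fragments, or 44.97 kb of sequence. *Il9r* (ENSMUSG00000020279.4, chr11:32087541-32100279, minus strand) has 35 fragments, *Snrnp25* (ENSMUSG00000040767.4, chr11:32105415-32108984, plus strand) has 15, *Rhbdf1* (ENSMUSG00000020282.12, chr11:32109585-32122300, minus strand) has 41 and *Mpg* (ENSMUSG00000020287.9, chr11:32126505-32132700, plus strand) has 20. *Snrnp25* and *Rhbdf1* share 5 fragments, so their values are not fully independent. All 20 *Mpg* fragments also overlap the annotated span of *Nprl3*, and the counts cannot be divided between these overlapping genes.

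NG Capture-C measures how often chosen viewpoint fragments are ligated to other fragments in fixed chromatin digested with DpnII. The 18 samples were Ter119+ erythroid cells purified from the spleens of adult C57BL/6 mice given phenylhydrazine, a drug that destroys red cells and makes the spleen fill with their precursors. Experiment 1 compared WT with ∆44/48, in which the CTCF sites HS+44 and HS+48 downstream of the α-globin genes are mutated on both alleles. Experiment 2 compared a second WT group with ∆θ1, ∆θ2 and ∆θ1/θ2, in which the CTCF sites at the θ-globin genes *Hbq1b* and *Hbq1a* are mutated singly or together, also on both alleles. Each of the 6 groups had 3 biological replicates, and how many founder lines each deletion represents is not given in the sources used here. All the deleted sites lie downstream of the enhancers, away from the upstream genes. The assay measures contacts and not expression, so the cell type was not checked against marker genes.

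Most erythroid enhancers of the α-globin genes, R1 and R2 among them, lie within introns of *Nprl3*, a gene for a subunit of the GATOR1 complex that restrains mTORC1 signalling. CTCF bound to DNA halts the cohesin complex as it extrudes chromatin loops, and pairs of sites facing each other are often found at the ends of self-interacting domains. HS-38 and its neighbour HS-39 are the CTCF sites at the upstream end of the α-globin sub-TAD, a domain that holds the enhancers and the globin genes. The upstream genes have unrelated roles. *Il9r* encodes a cytokine receptor chain, *Snrnp25* a protein of the minor spliceosome, *Rhbdf1* an inactive rhomboid protein that governs trafficking of the metalloprotease ADAM17, and *Mpg* a DNA glycosylase that removes alkylated purines in base excision repair.

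Because HS-38 is a CTCF site, the windows were searched on both strands for the core of the CTCF motif, spelled CCA, any 2 bases, then AGNNGGC. There were 5 matches on 5 of the 106 fragments (4.72%), against 3.08% of all DpnII fragments of chromosome 11, and 0.147% of all 30-bp windows of this chromosome hold a match. The matches are printed below 5′ to 3′ on the strand that holds them, with the core in capitals and mm9 coordinates. They are shown to give the sequence and orientation of each motif beside the interaction values of its fragment, and no binding was measured here.

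*Il9r*, downstream end, minus strand, chr11:32087451-32087480: ccttggaggCCAGAAGAGGGCatcagatct

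*Il9r*, upstream of the gene start, minus strand, chr11:32101152-32101181: tcagactcaCCAGAAGGGGGCatcagatcc

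*Rhbdf1*, coding exon, minus strand, chr11:32110834-32110863: gggctacttCCATGAGGAGGCcacactctg

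*Rhbdf1*, exon, plus strand, chr11:32117023-32117052: aataaatgaCCACGAGGTGGCgccaactgc

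*Mpg*, 3′ UTR, minus strand, chr11:32132368-32132397: cttcagacaCCAGAAGAGGGCattacatgc

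The *Rhbdf1* exon match was the only one of the 5 on the plus strand. Its fragment (chr11:32116895-32117143) had a density of 914.1 ± 17.31 counts per kb per 100,000 counts in cis from HS-38 in WT (SD, n = 3), against 468.7 for the whole *Rhbdf1* window. From the *Hba-a1/2* promoters it had 380.2 ± 54.62, against 188.7 for the whole window. The fragment at the upstream *Il9r* match (chr11:32101155-32101248) had 611.6 ± 87.93 from HS-38, against 162.6 for the *Il9r* window. The *Mpg* fragment with a match (chr11:32131944-32132753) lay below its gene's density, at 516.1 ± 21.81 against 667.6. These fragments are 249 bp (*Rhbdf1* exon), 94 bp (upstream *Il9r*) and 810 bp (*Mpg*) long. The remaining matches lay near their gene's density from HS-38, at 159.9 ± 29.77 (*Il9r*, 454 bp) and 497.7 ± 50.54 (*Rhbdf1* coding exon, 345 bp). Median fragment densities from HS-38 were above the gene's, at 545 for *Rhbdf1*, 241.8 for *Il9r* and 1211 for *Mpg*. The part of fragment length was not tested. Fragments holding the letters thus lay on both sides of their gene's mean. Between 1.14% and 5.79% of chromosome 11 fragments of similar length hold a match.

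The fragment with the highest WT density in each gene was also listed for each viewpoint. These were 11 distinct fragments, of which 8 were shorter than 100 bp, against 17 of all 106, and a density on a short fragment rests on few counts. For each gene at most 1 is shown, to give the sequence at a maximum of the signal per kb. It had to be at least 50 bp long and clear of annotated UTR, and one within the gene, or listed for more viewpoints, was preferred. *Mpg* had none. Fragment ends split the GATC cut site, and the capitals mark the TC and GA that remain.

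*Il9r* intron, plus strand, chr11:32098707-32098763: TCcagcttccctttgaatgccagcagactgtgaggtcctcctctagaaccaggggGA

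Upstream of *Snrnp25*, plus strand, chr11:32104554-32104678: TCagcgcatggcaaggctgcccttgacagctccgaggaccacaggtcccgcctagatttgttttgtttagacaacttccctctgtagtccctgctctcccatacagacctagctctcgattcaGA

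*Rhbdf1* intron, plus strand, chr11:32117610-32117669: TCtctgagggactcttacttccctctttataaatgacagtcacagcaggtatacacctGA

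The *Rhbdf1* intron fragment was the densest of its gene from both HS-38 (2009 ± 227.4) and R2 (345.7 ± 37.29). It lies less than 1 kb from the *Rhbdf1* exon fragment with the plus-strand motif. The *Il9r* intron fragment was the densest of its gene from the *Hba-a1/2* promoters (298.2 ± 114.6), and the *Snrnp25* fragment from R2 alone (308.8 ± 113.1). From R1 and *Hba-a1/2* the densest *Snrnp25* fragment was an exonic one (chr11:32105534-32105658), with 499.2 ± 146.8 and 550.0 ± 119.7.

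The genes were viewed from 5 fragments. HS-38 (chr11:32138079-32139000) is nearest, R1 (chr11:32145277-32146568) and R2 (chr11:32151060-32151883) are enhancers, and the promoter fragments of *Hba-a1* (chr11:32182969-32183821) and *Hba-a2* (chr11:32195804-32196638) were summed as *Hba-a1/2*. Distances from HS-38 to the gene midpoints were 8.9 kb for *Mpg*, 22.6 kb for *Rhbdf1*, 31.3 kb for *Snrnp25* and 44.6 kb for *Il9r*, and those from the *Hba-a1* promoter ran from 53.8 to 89.5 kb. Values are densities, in interaction counts per kb per 100,000 counts in cis (on chromosome 11, outside 1 kb around the viewpoint), which allow genes of different length to be compared. Over all viewpoints, samples held 940582 to 1120609 counts in WT and 345162 to 877191 in ∆44/48 in experiment 1, and in experiment 2 65610 to 159777 in WT, 8820 to 22935 in ∆θ1, 75080 to 232346 in ∆θ2 and 70160 to 149234 in ∆θ1/θ2. The ∆θ1 samples were the shallowest of the series, and ∆44/48 replicate 1 was the shallowest of experiment 1. HS-38 hits on other chromosomes averaged 1.96 counts per fragment in ∆44/48 replicate 1, and between 1.28 and 1.32 in the remaining samples. The *Hba-a1* and *Hba-a2* promoters are near-identical in sequence, and of the fragments on other chromosomes hit from either, 48.4% to 65.0% per sample were hit from both, so the summed counts are not all separate molecules.

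In WT cells the upstream genes were arranged in order of distance from HS-38. From HS-38, the density over *Mpg* was 676.8, 668.9 and 657.0 in the 3 WT samples of experiment 1. *Rhbdf1* had 489.4, 452.1 and 464.5. *Snrnp25* had 309.5, 290.4 and 320.1. No sample of a nearer gene reached down to any sample of the next gene, and the step from *Mpg* to *Rhbdf1* was 1.42-fold. *Il9r*, the farthest, had 165.2, 161.1 and 161.5. It lay 1.89-fold below *Snrnp25*, again with no overlap. The 4 windows together took 17.84% ± 0.4262 (SD, n = 3) of all HS-38 counts in cis.

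**Figure D1:**
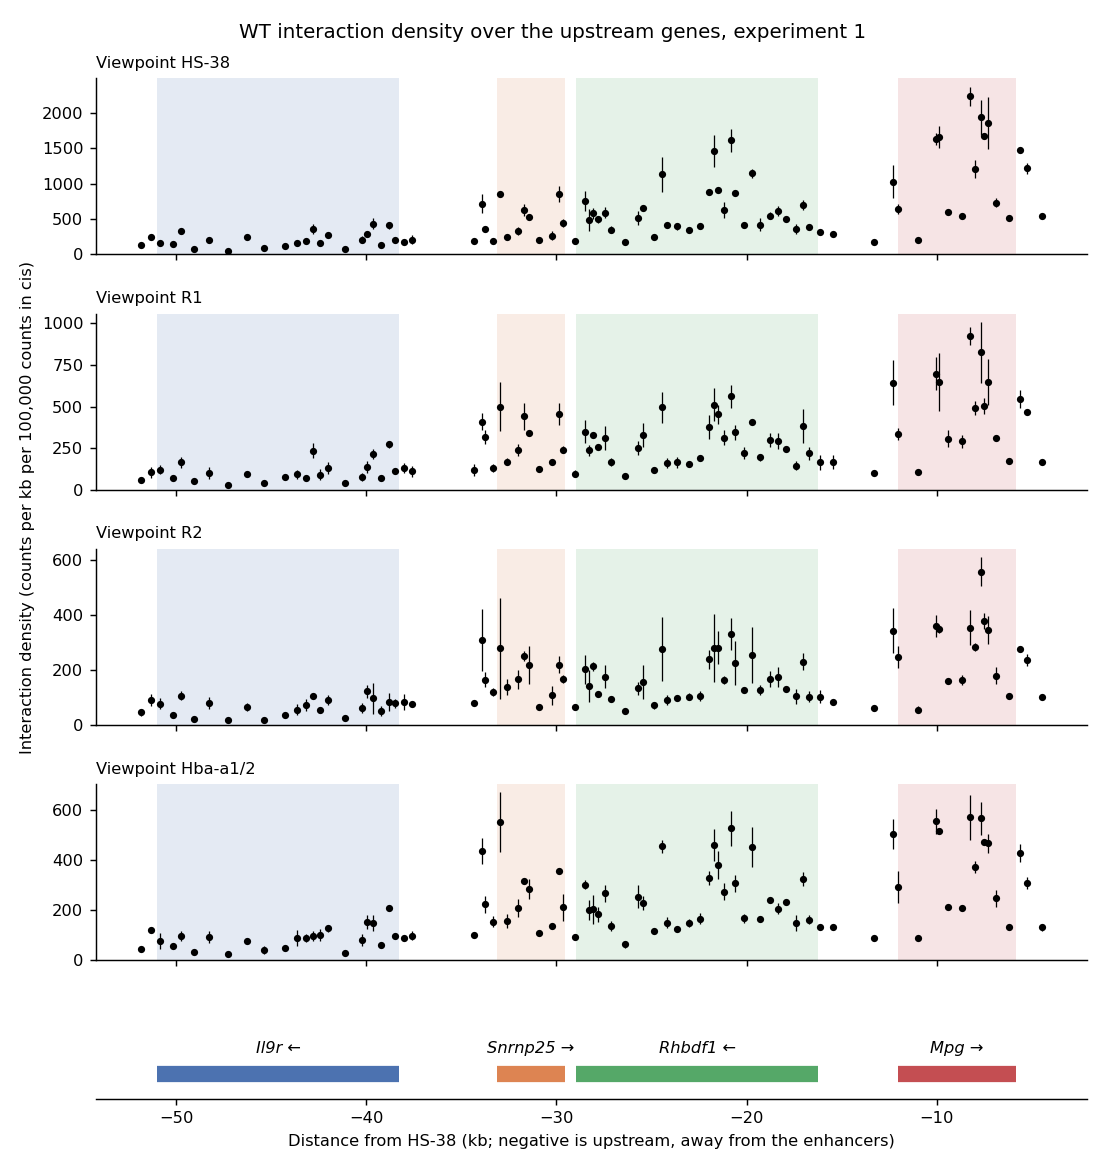
Interaction density of each DpnII fragment of at least 100 bp over the 4 upstream genes in WT cells of experiment 1, against distance from HS-38 in kb, in a panel for each viewpoint with its own vertical scale. Points are means of 3 samples, bars are SDs, and shaded bands are the genes. The highest point of each panel lies over *Mpg*, and *Il9r* has the lowest gene mean in each (162.6 from HS-38).

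The same order of mean densities held from the other viewpoints, with smaller steps among the nearer 3 genes. From R1, WT means were 283.2 for *Mpg*, 222.0 for *Rhbdf1*, 194.0 for *Snrnp25* and 84.35 for *Il9r*, and neighbours in this order did not overlap. From R2, *Mpg* had 161.8 and *Il9r* 52.71, while *Rhbdf1* (128.9) and *Snrnp25* (127.4) overlapped. From the *Hba-a1/2* promoters, *Mpg* had 216.3, *Rhbdf1* 188.7, *Snrnp25* 172.7 and *Il9r* 70.32, with no overlap between neighbours. In the WT samples of experiment 2, *Mpg* (259.1) and *Rhbdf1* (256.2) overlapped from these promoters, as did *Rhbdf1* and *Snrnp25* (191.5), and *Il9r* (87.78) lay apart. *Il9r* was thus 1.89-fold to 2.46-fold below *Snrnp25* from every viewpoint, the widest step in each.

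HS-38 contacted all 4 genes more than the enhancers or the promoters did. Against R1, WT density from HS-38 was higher by 1.24 on the log2 scale for *Mpg* (SE 0.050), by 1.08 for *Rhbdf1* (SE 0.049), by 0.95 for *Il9r* (SE 0.063) and by 0.66 for *Snrnp25* (SE 0.065). All 4 passed the quasi-likelihood test of edgeR, adjusted by Benjamini-Hochberg over all genes of chromosome 11 with enough counts (largest adjusted p = 9.47e-08), with the sample as a block since the viewpoints share libraries. Of the 1265 genes tested, 1.58% were called and 1.03% were called higher from HS-38. Against R2 the differences were 2.05 for *Mpg*, 1.86 for *Rhbdf1*, 1.63 for *Il9r* and 1.27 for *Snrnp25*, and all 4 were called where 2.75% of genes were and 1.41% were called higher from HS-38. Against *Hba-a1/2* they were 1.63, 1.31, 1.21 and 0.83 in the same order of genes, and all 4 were called where 1.87% of genes were and 0.684% were called higher from HS-38. In each of these comparisons *Mpg* differed most and *Snrnp25* least. HS-38 is also nearer to every member than R1, R2 or the promoters, and the part of distance in these differences was not tested.

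The direction from each viewpoint was described by setting each gene against the window at the same distance on the viewpoint's other side. From R1 all 4 genes lay below that window in 3 of 3 WT samples, with log2 ratios of -0.93 (*Mpg*) to -2.69 (*Il9r*). From R2 all 4 lay below it, with log2 ratios of -1.304 (*Il9r*) to -2.41 (*Rhbdf1*). From HS-38, *Rhbdf1* lay above its counterpart by 0.85, *Mpg* by 0.51 and *Snrnp25* by 0.31. *Il9r* had 162.6 against 473.0, and its counterpart window from HS-38 holds *Hba-a1*. From the *Hba-a1* promoter, all 4 genes lay above the window downstream, by 2.71 (*Mpg*) to 3.38 (*Rhbdf1*). So R1 and R2 contacted the upstream genes less than the windows on the side of the α-globin genes. Not all of these windows hold those genes. The R1 and R2 windows for *Mpg* end before the *Hba-a1* promoter, and the R2 window for *Il9r* starts beyond *Hbq1a*. The *Hba-a1* promoter contacted the upstream genes more than sequence downstream of the globin genes.

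After deletion of HS+44 and HS+48, the 4 upstream genes had lower mean density from each of the 4 viewpoints, and none passed the test at the adjusted p of 0.01 used throughout. The differences of *Mpg*, *Rhbdf1* and *Snrnp25* were largest from the *Hba-a1/2* promoters, and that of *Il9r* was of like size from R1. From *Hba-a1/2*, WT samples had 217.0, 213.1 and 218.8 over *Mpg*, and ∆44/48 samples 162.3, 180.2 and 184.9. The groups did not overlap, and the log2 difference was -0.30 (SE 0.073, edgeR's quasi-likelihood adjusted p = 0.0316), or 18.6% less. *Rhbdf1* had 183.3, 189.8 and 193.0 in WT and 143.6, 162.6 and 167.2 in ∆44/48, a log2 difference of -0.26 (SE 0.068, edgeR adjusted p = 0.0603) without overlap. *Snrnp25* had 180.0, 166.0 and 172.1 in WT against 139.3, 148.6 and 151.1, and *Il9r* 65.63, 72.73 and 72.60 against 57.88, 62.53 and 58.35. For both, every ∆44/48 sample lay below every WT sample, with a log2 difference of -0.24 (edgeR adjusted p = 0.507 for each).

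So 0 of 4 members were called by edgeR and 0 by DESeq2 from *Hba-a1/2*, where edgeR called 0.292% of 1713 genes. All 4 had an unadjusted p under 0.05, as had 109 of the 1713, and all 4 lay below every WT sample, as did 5.49% of the genes. The members' median log2 difference was -0.25 against 0.06 over all genes. Leaving out each sample in turn gave -0.34 to -0.25 for *Mpg* (edgeR adjusted p from 0.0167 to 0.396) and -0.30 to -0.20 for *Rhbdf1* (edgeR adjusted p from 0.0246 to 0.643), with the highest p without WT replicate 3 for *Mpg* and without WT replicate 2 for *Rhbdf1*. With counts within 1 Mb as library size, the differences shrank to -0.21 for *Mpg* (edgeR adjusted p = 0.15), -0.17 for *Rhbdf1* and -0.15 for *Snrnp25* and *Il9r*. With the zone left out around the viewpoints widened by 5 kb, *Rhbdf1* (-0.30, edgeR adjusted p = 0.0032) and *Mpg* (-0.35, edgeR adjusted p = 0.00891) passed 0.01. Of 1709 genes, 3 were called lower and 5 higher at this setting. With either promoter alone, 0 members passed 0.01. At an adjusted p of 0.05, *Mpg* alone would be called, where 0.35% of genes are.

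**Figure D2:**
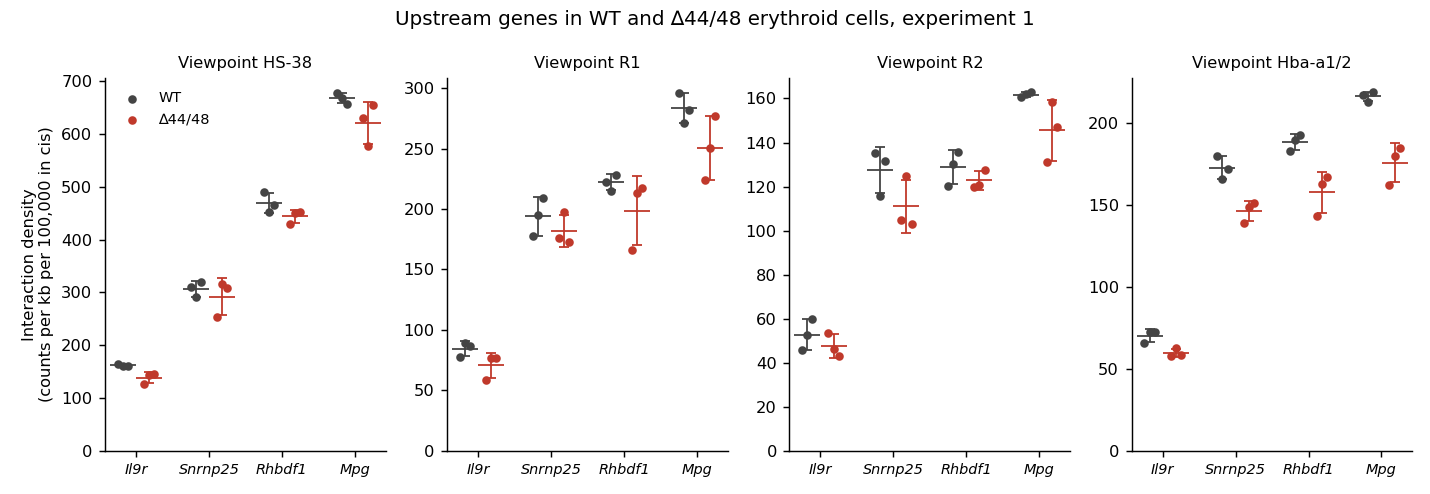
Interaction density (counts per kb per 100,000 counts in cis) over each upstream gene in WT and ∆44/48 cells, in a panel for each viewpoint with its own scale from 0. Points are the 3 samples of a group, lines are means and bars are SDs. The groups separate for all 4 genes only from *Hba-a1/2*, where for *Mpg* the highest ∆44/48 sample (184.9) lies below the lowest WT sample (213.1).

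From HS-38, *Il9r* had 165.2, 161.1 and 161.5 in WT and 127.1, 143.9 and 145.0 in ∆44/48. The groups did not overlap, with a log2 difference of -0.23 (SE 0.077, 95% interval -0.38 to -0.07, edgeR adjusted p = 0.276). *Mpg* had 630.5, 576.7 and 655.0 in ∆44/48, all below the lowest WT sample of 657.0, with a log2 difference of -0.11 (edgeR adjusted p = 0.868). *Rhbdf1* and *Snrnp25* overlapped between the groups, with log2 differences of -0.08 (95% interval -0.18 to 0.03) and -0.06 (95% interval -0.23 to 0.10). So 2 of 4 members lay below every WT sample, where 5.46% of 1209 genes did, and 0.414% were called. For *Snrnp25* the sign turned, to 0.02, without ∆44/48 replicate 1.

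From the enhancers the differences were of similar size and less certain. From R1, *Il9r* had 77.24, 88.92 and 86.89 in WT and 58.73, 76.50 and 76.94 in ∆44/48, a log2 difference of -0.24 (95% interval -0.47 to -0.01, edgeR adjusted p = 0.954) without overlap. The other 3 members overlapped between the groups from R1, at -0.17 for *Mpg*, -0.15 for *Rhbdf1* and -0.09 for *Snrnp25*. Without ∆44/48 replicate 1, the R1 differences were -0.14 for *Il9r*, -0.10 for *Mpg*, -0.045 for *Rhbdf1* and -0.069 for *Snrnp25*. From R2, *Mpg* had 160.5, 161.9 and 163.0 in WT and 131.1, 158.6 and 147.2 in ∆44/48, a log2 difference of -0.15 (95% interval -0.37 to 0.08, edgeR adjusted p = 0.991) without overlap. *Snrnp25* (-0.19), *Il9r* (-0.16) and *Rhbdf1* (-0.07) overlapped from R2. Thus 1 member from each enhancer lay below every WT sample, where 5.35% of 1159 genes did from R1 and 4.42% of 1268 from R2, and edgeR called 0.345% and 0.315% of them. Across HS-38, R1 and R2 the members' medians were -0.09, -0.16 and -0.15, against medians over all genes of 0.00, 0.06 and 0.10. By edgeR and by DESeq2, 0 members were called, and at an unadjusted edgeR p under 0.05 there were 2, 1 and 0 of 4 members and 68, 53 and 61 of all genes.

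Summed over the 4 windows, WT cells had a density from *Hba-a1/2* of 155.1 ± 3.02 (SD, n = 3). ∆44/48 cells had 128.7 ± 8.215, and the log2 difference of -0.27 is given as a description. From HS-38 it was 396.7 ± 9.478 and 366.7 ± 13.83. With this 1 Mb library size the summed log2 differences went from -0.113 to -0.060 from HS-38, from -0.184 to -0.103 from R1, from -0.140 to -0.053 from R2 and from -0.27 to -0.18 from *Hba-a1/2*. From *Hba-a1/2*, 67.34%, 64.76% and 64.36% of counts in cis lay within 1 Mb in WT and 58.72%, 61.38% and 64.5% in ∆44/48. A ratio within each sample needs no scaling between samples, and from HS-38 the upstream genes were set against the interval from the *Hba-a1* promoter to the end of *Hbq1a*. This log2 ratio was -0.470, -0.447 and -0.426 in WT and -0.093, -0.342 and -0.363 in ∆44/48. It lay higher in all 3 ∆44/48 samples, by 0.18 on average and by 0.10 without ∆44/48 replicate 1, as the density over the α-globin genes from HS-38 was 541.2 ± 20.06 in WT and 443.4 ± 58.24 in ∆44/48. From R1 and R2 the corresponding ratios overlapped between the groups. From *Hba-a1/2* the upstream genes were set against the interval of the enhancers (chr11:32145277-32176399) instead. This log2 ratio also overlapped, at -2.496 to -2.362 in ∆44/48 and -2.402 to -2.172 in WT.

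The other genes of the locus were counted by the same test. From HS-38, 1 of 8 was lower in ∆44/48 (*Nprl3*, log2 -0.17, edgeR adjusted p = 0.00552) and 2 were higher, *Sh3pxd2b* by 1.23 and *Ubtd2* by 1.40, both downstream of the deleted sites. The call of *Nprl3* was lost with DESeq2 and with TMM factors. From R1, R2 and *Hba-a1/2* the same 2 genes were higher and the remaining 6 were not called. From R2, DESeq2 called 1 of the 8 and TMM factors 0. In ∆θ1, ∆θ2 and ∆θ1/θ2 edgeR called 0 of the 8, with 4, 2 and 0 at an unadjusted p under 0.05, while DESeq2 called 1, 0 and 0. With TMM factors 5, 0 and 0 were called, all lower.

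In the θ-site deletions the 4 genes were measured from *Hba-a1/2* only, and none passed the test in any comparison with WT. In ∆θ1, *Rhbdf1* had 320.1, 365.3 and 338.7, against 231.7, 223.3 and 313.7 in WT. Every ∆θ1 sample lay above every WT sample, with a log2 difference of 0.41 (SE 0.144, 95% interval 0.13 to 0.70, edgeR adjusted p = 0.344). The ∆θ1 values rest on 264, 200 and 104 counts. *Mpg* had 297.0, 244.3 and 249.6 in ∆θ1 and 250.0, 238.1 and 289.3 in WT, which overlapped (log2 0.03, 95% interval -0.31 to 0.38). *Snrnp25* overlapped widely, at 263.9, 189.7 and 120.8 against 147.1, 169.7 and 257.7. *Il9r* had 85.18, 71.7 and 67.28 against 73.24, 83.14 and 107.0, also with overlap.

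Thus 1 of 4 members lay above every WT sample in ∆θ1, where 3.7% of 676 genes did, and 0% of genes were called. At an unadjusted edgeR p under 0.05 there was 1 member and 56 genes, and DESeq2 called 0 members. Without WT replicate 3 of experiment 2, *Rhbdf1* passed, at 0.58 (edgeR adjusted p = 0.00559), where 1 of 600 genes was called. Scaling decides the sign of the fitted difference here. TMM factors moved the median of all genes in ∆θ1 by -1.14 and DESeq2's size factors by -0.44, and under these *Rhbdf1* stood at -0.79 and -0.03. The medians of all genes under these settings were -1.15 and -0.45, below *Rhbdf1* in both. With TMM factors *Il9r* (-1.38) and *Mpg* (-1.14) were called lower. At this setting 12 of 676 genes were called lower, 5 of the 8 other locus genes among them, and 0 higher. The log2 ratio of the upstream genes to the interval of the enhancers needs no scaling between samples. It was -1.174, -1.034 and -1.337 in ∆θ1 and -2.058, -1.964 and -1.393 in WT. The difference was 0.62, and 0.50 to 0.83 with each sample left out in turn. Density over the enhancers was 494.7 ± 32.88 in ∆θ1 and 678.9 ± 63.55 in WT.

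**Figure D3:**
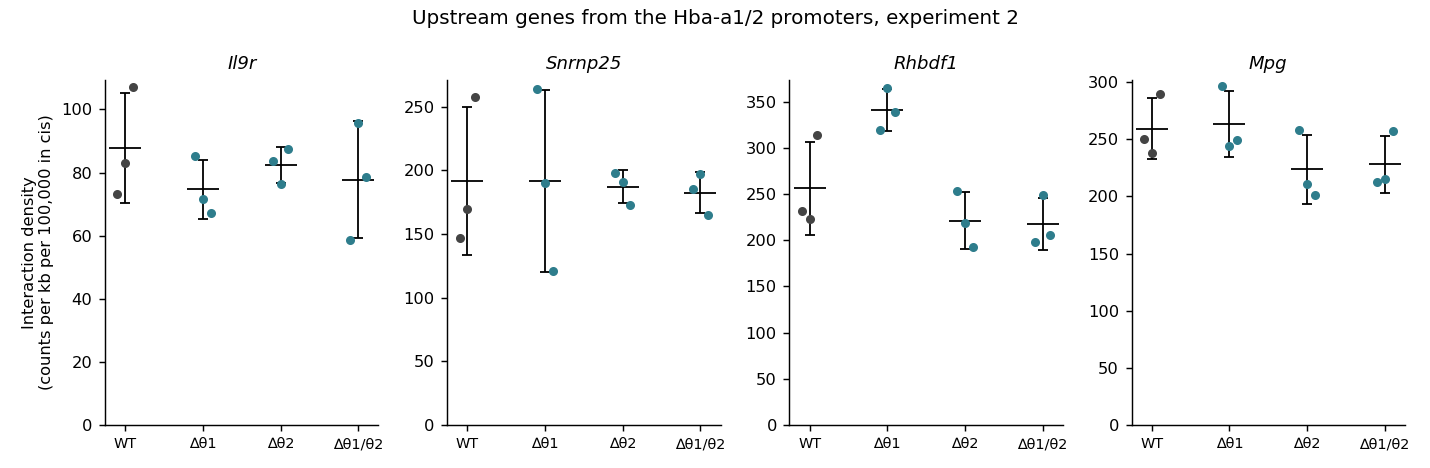
Interaction density from the *Hba-a1/2* promoters (counts per kb per 100,000 counts in cis, axes from 0) over each upstream gene in WT, ∆θ1, ∆θ2 and ∆θ1/θ2 cells of experiment 2. Points are the 3 samples of a group, lines are means and bars are SDs. Only *Rhbdf1* in ∆θ1 (lowest sample 320.1) stands wholly clear of WT (highest sample 313.7).

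In ∆θ2, *Rhbdf1* had 253.3, 218.5 and 192.3 and *Mpg* 258.2, 211.3 and 201.5, both overlapping with WT, at log2 differences of -0.21 for each (edgeR adjusted p = 0.994). *Il9r* differed by -0.09 (95% interval -0.46 to 0.28) and *Snrnp25* by -0.03 (95% interval -0.40 to 0.35). In ∆θ1/θ2, *Rhbdf1* had 197.8, 249.4 and 205.9 and differed by -0.23 (95% interval -0.50 to 0.03, edgeR adjusted p = 0.997). *Mpg* had 212.6, 215.3 and 257.0 there (-0.18), *Il9r* 58.66, 95.64 and 78.7 (-0.18) and *Snrnp25* 185.0, 197.2 and 165.0 (-0.06), and all overlapped with WT. No member lay below every WT sample, where 3.93% of genes did in ∆θ2 and 6.92% in ∆θ1/θ2. Both edgeR and DESeq2 called 0 members in each, and 0 had an unadjusted edgeR p under 0.05, against 47 of 1018 genes in ∆θ2 and 31 of 882 in ∆θ1/θ2, where 0% of genes were called. The members' medians were -0.15 and -0.18, against 0.10 and -0.08 over all genes. WT replicate 3 had the highest WT value for all 4 genes, and without it the summed difference went from -0.182 to -0.035 in ∆θ2 and from -0.197 to -0.050 in ∆θ1/θ2. The intervals above include changes as large as those seen for ∆44/48, so with these samples a difference of that size could not be told from none.

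**Figure D4:**
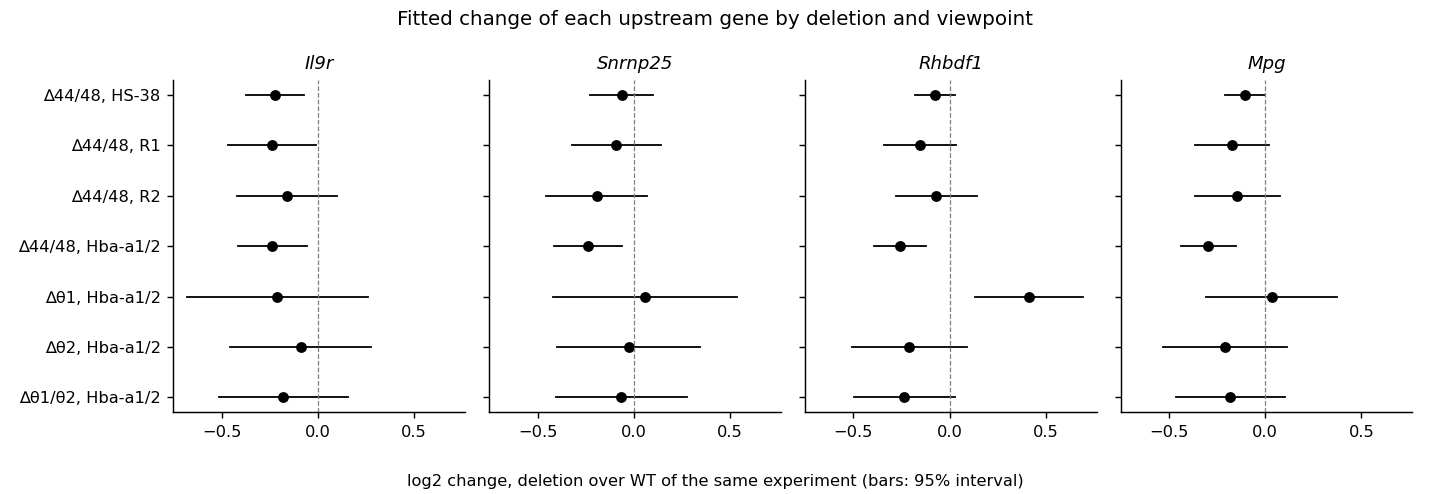
Fitted log2 change of each upstream gene in each deletion against WT of the same experiment, with a row for each deletion and viewpoint. Points are edgeR estimates, bars are 95% intervals and the dashed line is no change. From *Hba-a1/2*, the ∆44/48 intervals of all 4 genes lie below 0 (*Mpg* -0.44 to -0.15) and that of *Rhbdf1* in ∆θ1 lies above it.

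Whether the deletions differed from each other was tested directly. The effects of ∆44/48 and ∆θ1/θ2 on the upstream genes differed by -0.18 (*Snrnp25*) to -0.02 (*Rhbdf1*) on the log2 scale, with edgeR adjusted p from 0.829 to 1.0, where 0.0551% of 1814 genes were called. ∆θ1/θ2 and ∆θ2 differed by -0.09 (*Il9r*) to 0.03 (*Mpg*), with edgeR adjusted p from 0.981 to 0.982, where 0% of 959 genes were called. At an unadjusted edgeR p under 0.05 there were 0 members in both, against 114 of 1814 and 56 of 959 genes, and DESeq2 was not run for these. For *Rhbdf1* the intervals of these differences ran from -0.31 to 0.26 and from -0.26 to 0.21. Comparisons with ∆θ1 were added after the values were seen. *Rhbdf1* was higher in ∆θ1 than in ∆θ2 by 0.62 (SE 0.113, edgeR adjusted p = 3.25e-05) and higher than in ∆θ1/θ2 by 0.65 (SE 0.115, edgeR adjusted p = 1.06e-05), where 0.127% and 0.161% of genes were called. Both turned sign with TMM factors, to -0.48 and -0.25, neither past the threshold. The medians of all genes with these factors were -1.17 and -0.83, below *Rhbdf1* in both. The call against ∆θ2 was lost without ∆θ1 replicate 2 (edgeR adjusted p = 0.0168) or without ∆θ2 replicate 2 (0.0137), and the call against ∆θ1/θ2 without ∆θ1/θ2 replicate 1 (0.299).

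Single fragments were tested in the same way. Of the 105 or 106 member fragments with enough counts in each comparison, edgeR called 0 in all 7. From *Hba-a1/2* in ∆44/48, 87 of 106 (82.1%) were lower, with a median log2 difference of -0.25 against 0.12 over all 6783 fragments tested, of which 0.0885% were called. In 32 of the 106 every ∆44/48 sample lay below every WT sample, as in 6.47% of all fragments, and 22 had an unadjusted p under 0.05, against 568 of 6783. DESeq2 called 0 there. From HS-38, 80 of 106 were lower (median -0.13 against 0.20 over 2525 fragments, 0.673% called), 6 had an unadjusted p under 0.05 against 353 of all, and DESeq2 called 1, an *Mpg* fragment (chr11:32133466-32134725, adjusted p = 0.00394). Of all 2525 fragments, DESeq2 called 18 lower and 6 higher. From R1 and R2, 78 of 106 and 75 of 105 were lower (member medians -0.137 and -0.121), against medians over all fragments of 0.147 and 0.065, with 0% of fragments called. Of these, 8 and 4 had an unadjusted p under 0.05, against 199 of 1992 and 167 of 2292. In ∆θ1, ∆θ2 and ∆θ1/θ2, 53, 69 and 73 of 105 were lower (member medians -0.003, -0.156 and -0.214), against medians over all fragments of -0.285, 0.138 and 0.059, again with 0% called. An unadjusted p under 0.05 was found for 13, 7 and 7, against 79 of 638, 105 of 1415 and 55 of 1006, so in ∆θ1 the members' share was that of all fragments. DESeq2 called 0 member fragments in these 5 comparisons. Member fragments wholly below WT numbered 12, 11 and 11 from HS-38, R1 and R2 in ∆44/48, against 7.92%, 6.73% and 6.85% of all fragments. They numbered 19, 9 and 8 in ∆θ1, ∆θ2 and ∆θ1/θ2, against 23.7%, 5.44% and 3.28% of all. Neighbouring fragments share libraries and ligation events, so these counts are descriptions.

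In each comparison the member fragment with the smallest p was examined. From *Hba-a1/2* in ∆44/48 it was an intergenic fragment at the downstream end of *Il9r* (chr11:32087022-32087399), with 126.5, 109.6 and 127.4 in WT and 0, 78.48 and 68.58 in ∆44/48 (edgeR adjusted p = 0.152). From HS-38 it was an *Rhbdf1* intron fragment (chr11:32117670-32117786), next to the intron fragment printed above, with 1735, 1679 and 1426 in WT and 1138, 1033 and 1185 in ∆44/48 (log2 -0.53, edgeR adjusted p = 0.111). In ∆θ1 it was an *Rhbdf1* exon fragment (chr11:32115187-32115794), with 216.3, 141.5 and 270.4 in WT and 370.4, 790.5 and 829.0 in ∆θ1 on 39 counts (log2 1.62, edgeR adjusted p = 0.109). The groups were separate in these 3 fragments, but choosing the smallest p favours separate groups, so no conclusion is drawn from this. Of the 7 examined, 5 lay in *Rhbdf1*, which holds 41 of the 106 fragments.

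The genes whose profile was most like each member's over the 24 columns of experiment 1 (4 viewpoints in 6 samples) were other members. Among 89 genes with enough counts in every column, *Rhbdf1* and *Mpg* had the highest correlation of log2 density (Pearson's r = 0.992), followed by *Il9r* with *Rhbdf1* (0.986). *Snrnp25* was most like *Mpg* (0.963). The columns share libraries and viewpoints, and genes next to each other share distance, so these values are descriptions.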

How the data were processed

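NG Capture-C was carried out on 18 samples, 3 in each of 6 groups, taken from the labels. Per the paper's methods and the labels, the authors used Trim Galore for trimming, FLASH for merging read pairs, an in silico DpnII digest, Bowtie for alignment to mm9 and a step that removes PCR duplicates. The values the authors deposited are raw counts, 1 for each unique ligation product between a viewpoint and a fragment, and fragments at 0 are not listed. Of 1194116 listings on chromosomes 7, 11 and 14, 0 were not a DpnII fragment of the reference (NCBIM37, GENCODE annotation), and 0 columns of other samples were present.

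Counts were summed over fragments overlapping each gene with 1000 bp on either side. Counts within 1000 bp of the viewpoint, and in experiment 1 of HS-38 and HS-39, were left out, as were the other viewpoint fragments. The HS-39 viewpoint was not analysed here. Genes and fragments with at least 10 counts over the samples compared entered edgeR 4.0.16 under R 4.3.3 (quasi-likelihood test, counts in cis as library size, Benjamini-Hochberg over all genes or fragments of chromosome 11, threshold 0.01). With 3 samples per group the p-values rest on the spread between replicates. DESeq2 1.42.0, the tool of the authors' methods, served as an alternative. The models were tested on simulated data. Other steps used Python 3.11.15 with matplotlib 3.10.9, scipy 1.17.1, pandas 2.3.3 and numpy 2.4.6.

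All 4 genes are named in every comparison. Of their fragments, those named are the densest in WT for each gene and viewpoint, those with the motif, and in each comparison at most 2 past the threshold with separate groups or, where none passed, the one with the smallest p. The genes, lists and tests were chosen with earlier results of these data known. Repeated PCR products were removed no further than the authors did, so depth per sample overstates the number of separate molecules where counts repeat.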

Additional observations from a re-analysis of the deposited data

Results flagged for a closer look

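*Rhbdf1* moved apart between deletions when seen from *Hba-a1/2*, in tests added after seeing the data. The effect of ∆44/48 was lower than that of ∆θ1 by 0.67 (log2 -0.672, SE 0.170, edgeR adjusted p = 0.0449, not past 0.01), and passed without WT replicate 3 of experiment 2 (-0.84, edgeR adjusted p = 7.74e-05). By edgeR, 0 of 1787 genes were called in this comparison (0%), with 127 at an unadjusted p under 0.05, DESeq2 was not run for it, and with TMM factors the value was 0.399. The median of all genes was 1.204 without these factors and 1.822 with them, above *Rhbdf1* in both. The differences of 0.622 between ∆θ1 and ∆θ2 and of 0.649 between ∆θ1 and ∆θ1/θ2 are those given above for the direct tests. The ∆θ1 samples were higher in 3 of 3 than all samples of ∆θ2 and ∆θ1/θ2, and they are the shallowest of the series. The part of depth in these differences was not tested.

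The β-globin and *Slc25a37* viewpoints, on chromosomes 7 and 14, listed 47 counts on the upstream genes over the 18 samples, from 0 to 10 per sample. In 5 samples the number was above 3, the limit that a count of 0 allows. By length, 19.3 of their 52341 counts on chromosome 11 would fall there, and the *Hba-a1/2* viewpoints listed 74320.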

How the results depend on the processing

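Of 398 recomputed counts of called members, summed differences and ratios, 388 stayed within 1.5 times (counts) or within the spread between replicates. Of the 147 summed differences and ratios, 6 turned sign, all ratios with 1 sample left out: 0.018 from R1 without ∆44/48 replicate 1, 0.001 and 0.039 from R2 without WT replicates 2 and 3, and in ∆θ2 0.186, 0.016 and 0.007 without WT replicate 3 and ∆θ2 replicates 2 and 3. In ∆44/48 from *Hba-a1/2*, 1 member was called at 0.05, where 6 of 1713 genes were. With the wider zone 2 were called, where 3 of 1709 genes were lower and 5 higher. In ∆θ1, TMM factors called 2, where 12 of 676 genes were called. With DESeq2, 1 single fragment was called from HS-38, where 18 of 2525 were lower and 6 higher. For ∆θ1 against ∆θ1/θ2, TMM factors called 0. Without single replicates (leave-one-out), the number called was 0 to 1 for ∆θ1 against WT, for ∆44/48 against ∆θ1, for ∆θ1 against ∆θ2 and for ∆θ1 against ∆θ1/θ2.

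Signs turned for 24 values of single genes. *Rhbdf1* from R2 in ∆44/48 stood at 0.015 with counts within 1 Mb as library size. In ∆θ1, DESeq2 gave -0.364 for *Snrnp25*, -0.033 for *Rhbdf1* and -0.397 for *Mpg*, and TMM factors -1.078, -0.785 and -1.144. *Snrnp25* stood at -0.019 in ∆θ1 without its top fragment, and in ∆θ2 at 0.032 with the 1 Mb library. *Rhbdf1* with TMM factors stood at 0.399 for ∆44/48 against ∆θ1, -0.481 for ∆θ1 against ∆θ2 and -0.249 for ∆θ1 against ∆θ1/θ2. The medians of all genes there were 1.822, -1.170 and -0.833. The cause was not tested. Leave-one-out ranges that crossed 0 were those of *Snrnp25* from HS-38 in ∆44/48 (-0.123 to 0.024), of *Snrnp25* (-0.259 to 0.332) and *Mpg* (-0.069 to 0.121) in ∆θ1, of *Il9r* (-0.203 to 0.072) and *Snrnp25* (-0.183 to 0.239) in ∆θ2, and of *Snrnp25* in ∆θ1/θ2 (-0.220 to 0.202). TMM factors moved the median of all genes in ∆44/48 by -0.11, -0.16, -0.19 and -0.14 from HS-38, R1, R2 and *Hba-a1/2*, where all 4 members kept their sign.

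With the replicate number as a block, 0 members were called in the 7 comparisons with WT, and *Snrnp25* in ∆θ2 stood at 0.012. Deviations of same-numbered samples correlated at -0.11 to 0.33 and in no comparison all above 0.1, so the numbers were not taken as pairs. SEs of the members from *Hba-a1/2* were 0.144 to 0.244 in ∆θ1, the shallowest samples, against 0.068 to 0.091 in ∆44/48, and the parts of depth and of spread between replicates were not tested.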
